A study of Mus musculus with 686 samples.

Results

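Brown adipose tissue (BAT) from mice whose spaceflight ended on orbit was profiled by small RNA sequencing in 30 libraries of the 686 in the series, 1 library per mouse. The members were taken by their labels: tissue BAT, protocol ISS Term (TERM), and 1 of 3 arms with 10 mice each. All were female BALB/cAnNTac mice, and each arm held 5 mice aged 3 months and 5 aged 8 months. Flight mice (FL) were housed on the International Space Station, habitat ground control mice (HGC) lived on Earth in housing matched to the flight habitat, and vivarium ground control mice (VGC) lived on Earth in ordinary laboratory cages. Mice of the 3 arms were given NASA food bars, were anaesthetised and killed 22 to 24 days after launch, and were frozen as whole carcasses from which brown fat was dissected after thawing. The study reports mould on the bars of FL and HGC mice, to an unknown degree, and an earlier end of TERM because of it. FL carcasses floated in air as they froze and did not snap freeze, and control carcasses were frozen on the ground. These differences between arms cannot be told apart from flight or housing. The study compared FL with HGC for flight under matched housing and FL with VGC for flight together with its housing, in 13 tissues. A second set (LAR), with 5 mice of each age in each arm, had its tissues dissected fresh and frozen. Its FL mice stayed in orbit longer and returned to Earth alive, and its HGC and VGC mice stayed on Earth. The same mouse number in different arms names different animals, and the p-values below measure the spread between these mice.

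Brown fat oxidises lipid to produce heat, through mitochondria that carry the uncoupling protein UCP1, and its precursor cells share an origin with skeletal muscle. MicroRNAs (miRNAs) are short RNAs that bind messenger RNAs chiefly through their seed and lower the output of these targets. In brown fat, miR-193b and miR-365 come from a shared cluster and favour the brown fat fate, miR-378a lies within the gene of the mitochondrial regulator PGC-1beta and favours brown fat expansion, and miR-133a holds back the brown fat regulator PRDM16. The other RNA classes counted were fragments of transfer RNA (tRNA), ribosomal RNA (rRNA), small nuclear RNA (snRNA, of the spliceosome), small nucleolar RNA (snoRNA, which guides the modification of other RNAs), PIWI-interacting RNA annotations (piRNA) and long noncoding RNA (lncRNA).

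The mature sequences of the miRNAs that the results turn on are printed 5′ to 3′ from RefSeq (build GRCm38.p6), with the seed, bases 2 to 8, in capitals. A mature sequence was found for 64 of the 80 miRNAs on the lists used here. The first set holds the 3 markers given for brown fat. mmu-miR-193b-3p lies at chr16:13449570-13449591 and mmu-miR-365-3p at chr16:13453895-13453916, both on the plus strand and with starts 4325 bases apart. A second copy of mmu-miR-365-3p lies at chr11:79726467-79726488 (plus strand), and mmu-miR-21a-5p lies at chr11:86584120-86584141 (minus strand). The 3 seeds differ.
mmu-miR-193b-3p: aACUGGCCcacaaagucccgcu
mmu-miR-365-3p: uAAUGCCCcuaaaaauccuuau
mmu-miR-21a-5p: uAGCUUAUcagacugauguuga

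The second set shows mmu-miR-92a-3p, which had the smallest p-value between FL and VGC, with 4 miRNAs that carry the same seed AUUGCAC. mmu-miR-92a-3p has 2 genomic copies, at chr14:115044476-115044496 (plus strand) and chrX:52741854-52741874 (minus strand), and the counts do not separate them. mmu-miR-363-3p lies close to the second copy at chrX:52741697-52741718.
mmu-miR-92a-3p: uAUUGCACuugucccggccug
mmu-miR-92b-3p: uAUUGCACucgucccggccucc
mmu-miR-25-3p: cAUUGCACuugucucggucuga
mmu-miR-32-5p: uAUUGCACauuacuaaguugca
mmu-miR-363-3p: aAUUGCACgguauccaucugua

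The third set shows the miR-34 family, which led the interaction of age and flight among libraries with a brown fat profile, and mmu-miR-215-5p, which led FL against HGC outside the listed pools, with its seed partner mmu-miR-192-5p. mmu-miR-34a-5p and mmu-miR-34b-5p share the seed GGCAGUG, mmu-miR-34c-3p (chr9:51103044-51103065) and mmu-miR-34b-3p (chr9:51103574-51103595, both minus strand) share AUCACUA, and mmu-miR-192-5p and mmu-miR-215-5p share UGACCUA.
mmu-miR-34a-5p: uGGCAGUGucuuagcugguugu
mmu-miR-34b-5p: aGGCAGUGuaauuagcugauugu
mmu-miR-34c-3p: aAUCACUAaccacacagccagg
mmu-miR-34b-3p: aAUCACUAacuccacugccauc
mmu-miR-192-5p: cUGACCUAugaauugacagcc
mmu-miR-215-5p: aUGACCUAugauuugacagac

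Of the 30 libraries labelled brown fat, 13 had the miRNA profile of another tissue. Each library was compared with the median profile of every tissue of the series over 730 miRNAs, by Pearson correlation after centring over tissues. FL mouse 1 (r = 0.544), FL mouse 4 (0.694), HGC mouse 11 (0.555) and VGC mouse 1 (0.366) were closest to brain. FL mouse 3 (0.924), FL mouse 14 (0.955) and VGC mouse 13 (0.888) were closest to spleen. VGC mouse 3 (0.346) and VGC mouse 14 (0.952) were closest to thymus, FL mouse 13 (0.803) and VGC mouse 12 (0.621) to gonadal fat, HGC mouse 1 (0.712, beside 0.586 with brown fat) to subcutaneous fat and HGC mouse 16 (0.959) to kidney. By arm, 5 FL, 3 HGC and 5 VGC libraries had another profile.

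The sequencing pools numbered ISS2 to ISS5, ISS19 to ISS22 and ISS39 to ISS41 in the study's pool list held 13 of the 30 libraries, and 11 of these had another profile. FL mouse 4 and HGC mouse 1 had another profile and lay outside these pools, while HGC mouse 5 and HGC mouse 13 lay in them and were closest to brown fat. Every comparison was therefore made over the 30 libraries, over the 17 outside the listed pools (6 FL, 6 HGC and 5 VGC) and over the 17 with the profile of brown fat (5 FL, 7 HGC and 5 VGC). Correlation with brown fat ran from 0.459 to 0.922 (median 0.852) in the latter, and HGC mouse 5 and HGC mouse 13 stood at 0.918 and 0.459. HGC mouse 1, left out of them at 0.586, thus exceeded FL mouse 5 (0.562) and HGC mouse 13 in this measure. The set with a brown fat profile was chosen by miRNA levels. How low or high the miRNAs of each tissue stand in it is therefore partly fixed by that choice.

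The neuronal, liver and kidney markers were high in few libraries. The 5 neuronal miRNAs (mmu-miR-124-3p, mmu-miR-9-5p and 3 others) summed to 63661 counts per 1000000 miRNA counts (CPM) in FL mouse 4 and to 56.1 to 782 CPM in the 17 libraries with a brown fat profile. The sum was also high in HGC mouse 11 (32757 CPM), FL mouse 1 (26347), VGC mouse 1 (21278) and VGC mouse 3 (8265), so such libraries lay in each arm. The 3 kidney and gut miRNAs summed to 41181 CPM in HGC mouse 16, 18926 in FL mouse 4, 5862 in VGC mouse 3, 5810.4 in HGC mouse 13 and 4429 in VGC mouse 1, so FL mouse 4 was high in neuronal, liver and kidney lists alike. The 2 liver miRNAs of the miR-122 hairpin summed to 70573 CPM in FL mouse 4 and to 13573 CPM in HGC mouse 13. The muscle list, led by mmu-miR-133a-3p, mmu-miR-1a-3p and mmu-miR-206-3p, summed to 82977 to 280310 CPM in the libraries with a brown fat profile, so muscle miRNAs were abundant in each of them. Fewer cells of a type and less RNA per cell cannot be told apart in such bulk tissue.

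**Figure D1:**
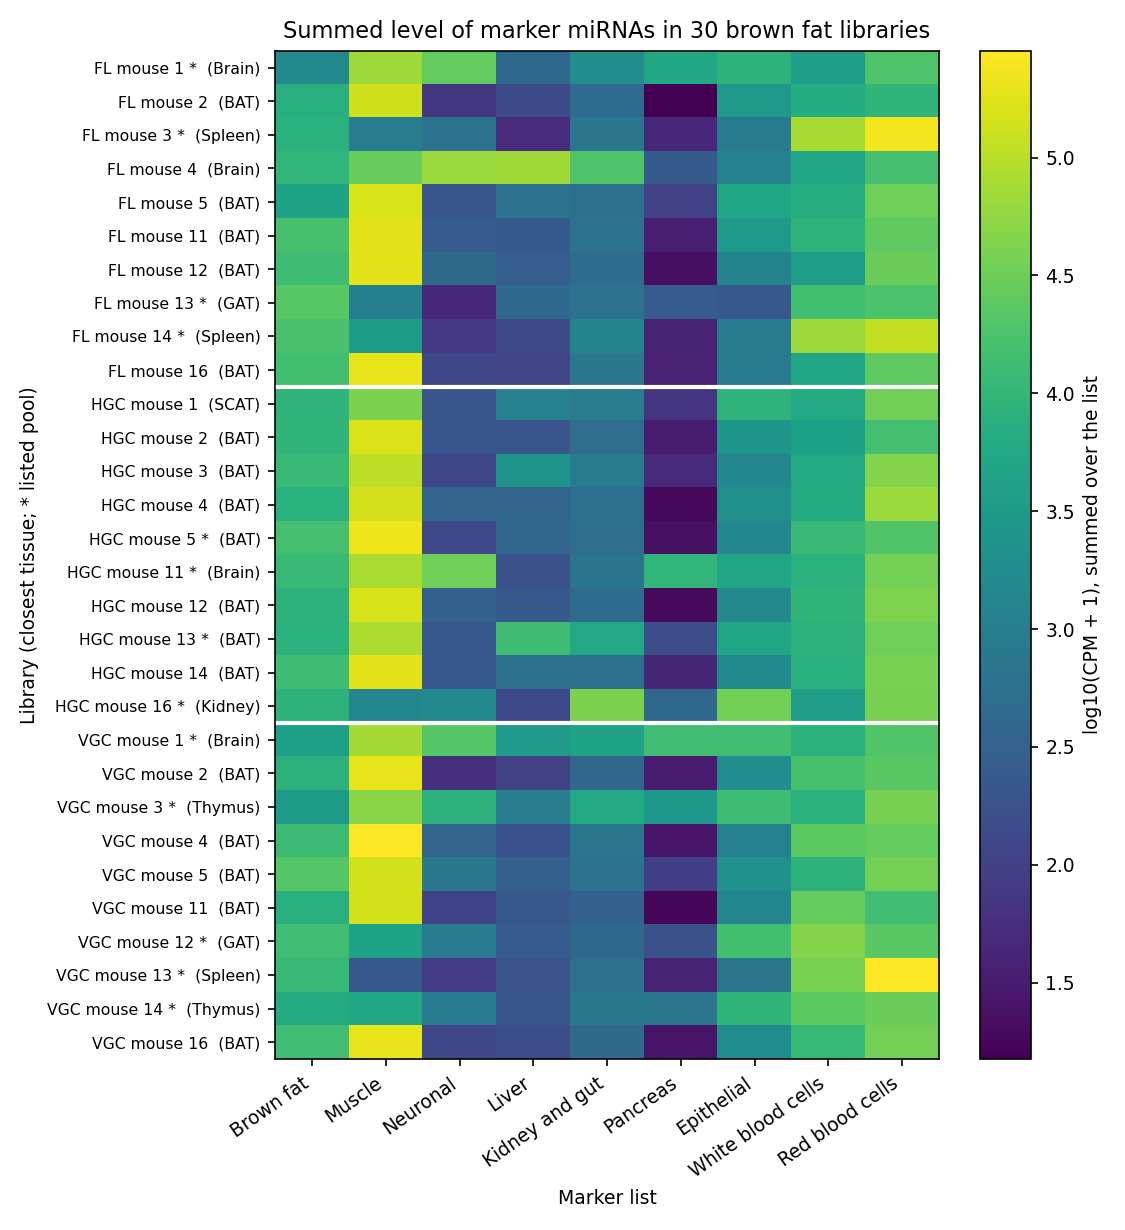
Heat map of summed marker levels (log10 of CPM plus 1), with the 30 libraries as rows (by arm and mouse) and marker lists as columns. The lists shown are brown fat, muscle, neuronal, liver, kidney and gut, pancreas, epithelial, white blood cells and red blood cells. FL mouse 4 stands out for neuronal (63661 CPM) and liver (70573 CPM) miRNAs, and HGC mouse 16 for kidney and gut miRNAs.

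Depth differed between libraries. Counts over the 7 RNA classes ranged from 35062133 to 428254667 per library (median 61497452), and miRNA counts from 1864145 to 15596772 (median 3476236). Between 524 and 775 miRNAs reached 5 reads in a library. At 1864145 miRNA counts, 1 read is under 1 CPM, and a count of 0 allows up to 3 counts. Intervals on single libraries would cover counting error only, so the spread between mice is given.

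By edgeR in the 30 libraries 0 miRNAs passed an adjusted p of 0.05 between flight and either control. edgeR's quasi-likelihood test with Benjamini-Hochberg adjustment over the 1015 tested miRNAs called 0 between FL and HGC (smallest adjusted p = 0.451) and 0 between FL and VGC (0.64). At an unadjusted p under 0.05 there were 94 miRNAs for FL against HGC (9.26% of those tested) and 46 for FL against VGC (4.53%), and DESeq2 and the Wilcoxon test, on counts scaled to the sum of all classes, also called 0 in both. In libraries outside the listed pools 0 of 832 miRNAs were called in either comparison, with 131 (15.7%) and 133 (16%) at an unadjusted p under 0.05 and smallest adjusted p-values of 0.135 and 0.0756. There DESeq2 called 5 (0.601%) for FL against HGC (mmu-miR-215-5p, mmu-miR-466i-5p, mmu-miR-5100, mmu-miR-6240 and mmu-miR-92b-3p) and 5 (0.601%) for FL against VGC (mmu-miR-92a-3p, mmu-miR-150-5p, mmu-miR-31-3p, mmu-miR-34b-5p and mmu-miR-34c-5p). Among libraries with a brown fat profile edgeR called 0 of 791 in either comparison, with 30 (3.79%) and 58 (7.33%) at an unadjusted p under 0.05. DESeq2 was not run in this set. Both comparisons use the same FL libraries.

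The absence of calls does not show that levels were equal. The 95% confidence interval of the log2 difference lay within -1 to 1 for 19.5% of the miRNAs tested outside the listed pools between FL and HGC and for 14.8% between FL and VGC. Among libraries with a brown fat profile these shares were 29.5% and 17.2%. For the remaining miRNAs the interval reached a change of 2-fold or more in at least 1 direction.

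The miRNAs of highest mean level, mmu-miR-378a-3p and mmu-miR-133a-3p, are known from brown fat and muscle. In the 17 libraries with a brown fat profile mmu-miR-378a-3p took 24.3% of miRNA counts (mean 243045 ± 103670 CPM, SD), followed by mmu-miR-133a-3p with 12.3% (123397 CPM), mmu-let-7c-5p with 56558 CPM and mmu-miR-26a-5p with 42882 CPM. mmu-miR-378a-3p ranged over the 30 libraries from 7450 to 460778 CPM. The marker mmu-miR-193b-3p stood at 18.4 CPM in VGC mouse 13, 28.8 in FL mouse 3 and 43.5 in FL mouse 14, the libraries with a spleen profile, below every library with a brown fat profile (lowest 665 CPM, in FL mouse 5).

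The 3 markers given for brown fat overlapped between the arms outside the listed pools. mmu-miR-193b-3p, which favours brown fat formation, ranged over 665 to 3953 CPM (median 1626) in FL and 824 to 2439 CPM (median 1472) in HGC. In the 5 VGC mice it stood at 1953, 2806, 4794, 2046 and 2011 CPM. The 3 arms overlapped. The log2 difference was 0.46 ± 0.42 (SE, 95% interval -0.41 to 1.34) for FL against HGC and -0.26 ± 0.44 (-1.17 to 0.66) for FL against VGC. Among libraries with a brown fat profile the differences were 0.33 ± 0.34 and -0.13 ± 0.37, and over the 30 libraries -0.15 ± 0.74 and -0.11 ± 0.74.

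mmu-miR-365-3p, made from the same cluster, ranged over 2999 to 10205 CPM (median 6951) in FL and 5175 to 9758 CPM (median 6360.2) in HGC outside the listed pools. The VGC mice held 6006, 8024, 15067, 4224 and 10704 CPM. Its arms overlapped as well. The log2 difference was -0.06 ± 0.37 (-0.83 to 0.71) against HGC and -0.27 ± 0.39 (-1.08 to 0.53) against VGC.

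mmu-miR-21a-5p, a broad marker of adipose and stromal tissue, ranged over 802 to 4269 CPM (median 1813) in FL and 428 to 2251 CPM (median 1309) in HGC. The VGC mice held 580.4, 1793, 1540.0, 828 and 1315 CPM. FL medians were above both controls, with overlap. The log2 difference was 0.75 ± 0.39 (-0.06 to 1.56, adjusted p = 0.36 by edgeR) against HGC and 0.90 ± 0.41 (0.04 to 1.76, adjusted p = 0.284) against VGC. With a brown fat profile the differences were 0.34 ± 0.37 and 0.68 ± 0.40, and over the 30 libraries 1.00 ± 0.56 and 0.20 ± 0.55.

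mmu-miR-378a-3p, the most abundant miRNA, ranged over 85934 to 429307 CPM (median 225207) in FL and 69773 to 212290.0 CPM (median 186734) in HGC. The VGC mice held 254034, 177465, 247153, 460778 and 186301 CPM. The arms overlapped here too. The log2 difference was 0.56 ± 0.43 (-0.34 to 1.45) against HGC and -0.11 ± 0.45 (-1.05 to 0.83) against VGC.

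**Figure D2:**
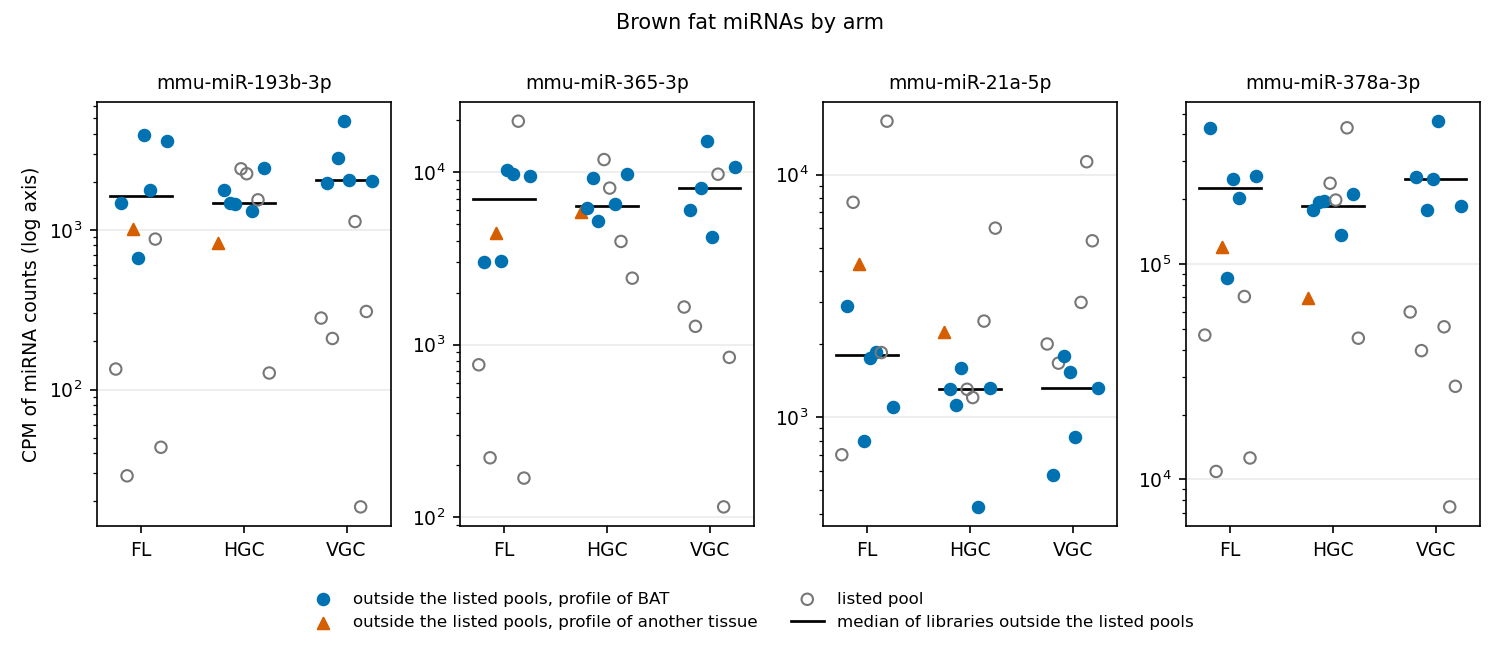
Level of 4 brown fat miRNAs (CPM, log axis) by arm. Each point is 1 of the 30 libraries, with the listed pools and other-tissue profiles marked as in the key, and the arms overlap for each miRNA.

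Across the 17 libraries outside the listed pools mmu-miR-193b-3p and mmu-miR-365-3p varied together (Pearson r = 0.875 on log2 of CPM over all classes plus 1, among 81 miRNAs compared). The next closest to mmu-miR-193b-3p were mmu-miR-133b-3p (0.857), mmu-miR-378c (0.855), mmu-miR-193a-3p (0.845) and mmu-miR-378a-3p (0.839). The closest to mmu-miR-365-3p after mmu-miR-193b-3p were mmu-miR-182-5p (0.826), mmu-miR-29a-3p (0.812), mmu-miR-99a-5p (0.795) and mmu-miR-29b-3p (0.794). The closest to mmu-miR-21a-5p were mmu-miR-497a-5p (0.891), mmu-miR-29b-3p (0.82), mmu-miR-27a-3p (0.802) and mmu-miR-27b-3p (0.794), and its r was 0.455 with mmu-miR-193b-3p and 0.426 with mmu-miR-365-3p. These libraries share the 3 arms, the depth of each library and the share of miRNA in it, and they include FL mouse 4 and HGC mouse 1 with profiles of other tissues, so the values describe this set.

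The 15 miRNAs known to promote brown or beige adipocytes gave values on both sides of 0. Of the 15, 0 had an unadjusted p under 0.05 between FL and HGC outside the listed pools and 10 were above 0, with a median log2 difference of 0.08 beside 0.24 over all miRNAs tested. Of all miRNAs tested there 15.7% had such a p against HGC and 16% against VGC, the background for this and the following lists. Without FL mouse 4, of brain profile, 51 and 64 of the 784 tested had such a p, and the medians over all tested were 0.11 and 0.08. The list counts given outside the listed pools include FL mouse 4. Between FL and VGC 1 of the 15, mmu-miR-26a-5p, had such a p (0.51 ± 0.23, adjusted p = 0.284 by edgeR), and the median was -0.11 beside 0.22. The summed level of the list was 181685 to 473327 CPM in FL, 151395 to 289030 in HGC and 250981 to 504275 in VGC, and these ranges overlapped. Of the other members, mmu-miR-182-5p differed by 0.08 ± 0.35 and 0.19 ± 0.37, mmu-miR-455-3p by -0.11 ± 0.31 and -0.60 ± 0.33, and mmu-miR-30b-5p by 0.52 ± 0.44 and 0.53 ± 0.46 against HGC and VGC.

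The 12 miRNAs known to hold back brown or beige adipocytes had 0 members with an unadjusted p under 0.05 between FL and HGC (median -0.07) and 3 (of 12, beside 16% of all tested), each above 0, between FL and VGC (median 0.07). These were mmu-let-7i-5p (0.90 ± 0.30), mmu-miR-34a-5p (1.55 ± 0.53) and mmu-miR-27b-3p (0.71 ± 0.32), with adjusted p-values of 0.176, 0.176 and 0.284 by edgeR. mmu-miR-34a-5p stood at 3131 CPM in FL mouse 5 and at 331 to 1427 CPM in the other 5 FL mice. mmu-let-7i-5p ranged over 2661 to 8774 CPM (median 5958) in FL, 6631 to 11571 CPM (median 8432) in HGC and 1987 to 6172 CPM (median 2737) in VGC. FL overlapped both controls. mmu-miR-133a-3p, the inhibitor with the highest level, differed by 0.30 ± 0.43 against HGC and -0.29 ± 0.45 against VGC, mmu-miR-155-5p by -0.13 ± 0.33 and -0.44 ± 0.35, and mmu-miR-125b-5p by -0.39 ± 0.32 and -0.40 ± 0.34.

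**Figure D3:**
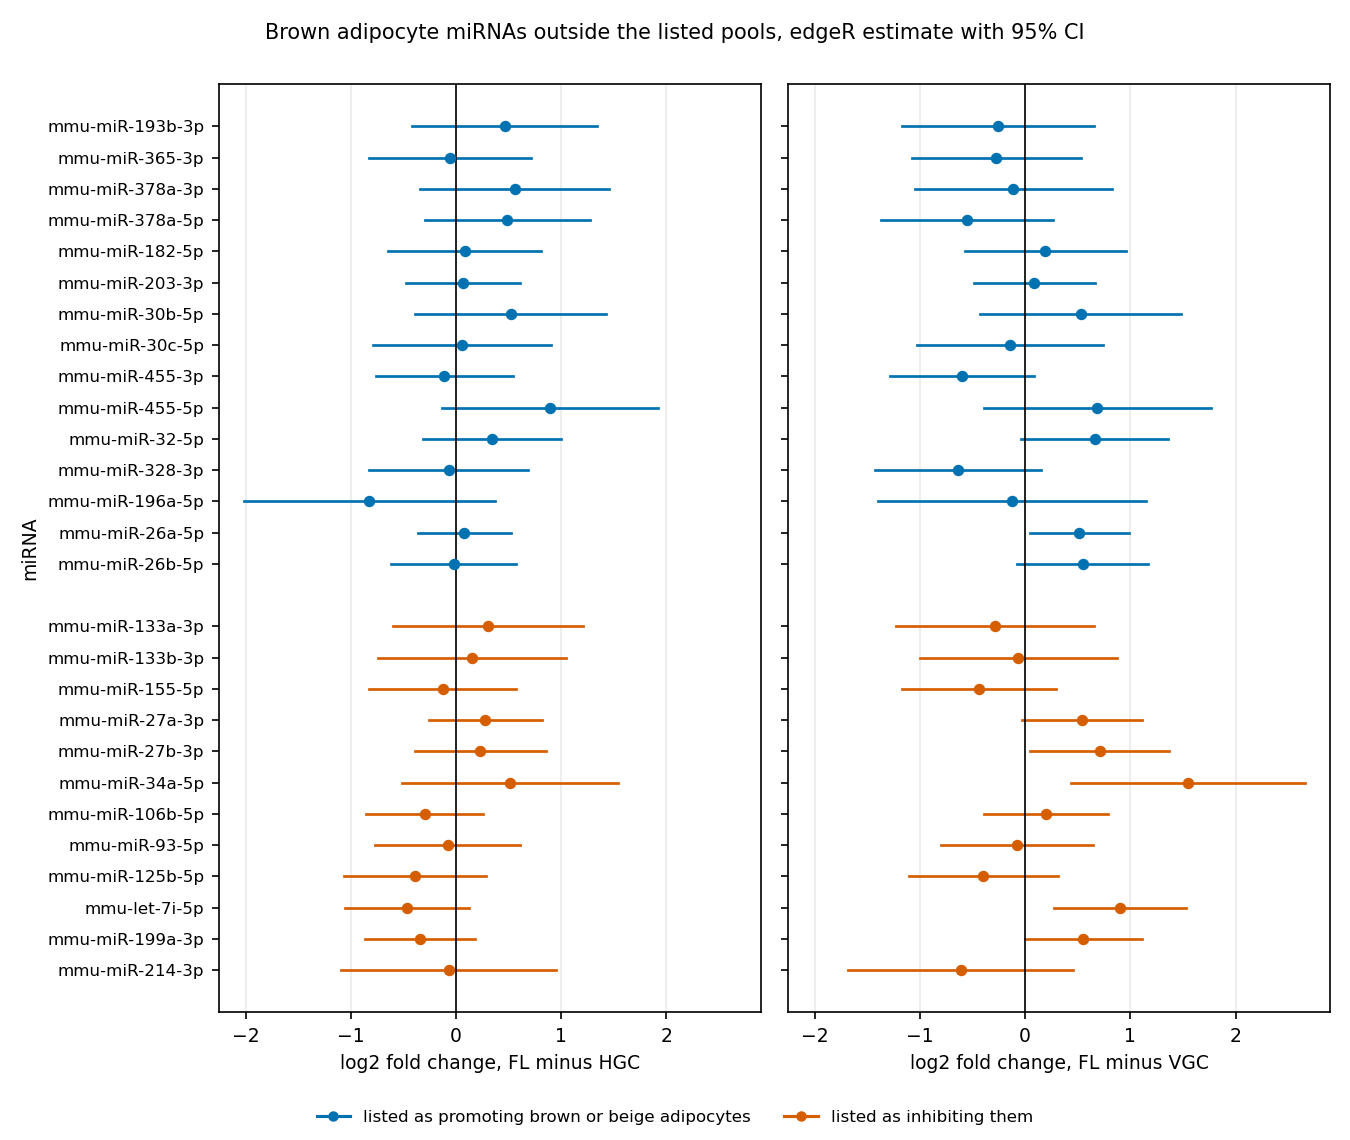
Log2 difference with its 95% confidence interval for the 27 miRNAs of the promoter and inhibitor lists, FL against HGC and FL against VGC, in libraries outside the listed pools. Points scatter around 0, and the intervals that leave 0 belong to the 4 miRNAs named in the text for FL against VGC.

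The 14 adipose and stromal miRNAs had a median of 0.23 against HGC and 0.55 against VGC, beside 0.24 and 0.22 over all miRNAs tested. mmu-miR-29c-3p, which represses collagen genes, and mmu-miR-21a-5p had an unadjusted p under 0.05 against VGC, and 0 members had one against HGC. mmu-miR-29c-3p ranged over 853 to 3375 CPM (median 1979.5) in FL, 785 to 1674 CPM (median 1315) in HGC and 493 to 1386 CPM (median 1186) in VGC, a log2 difference of 1.01 ± 0.37 against VGC (adjusted p = 0.186 by edgeR). FL and VGC overlapped. The 7 muscle miRNAs (medians 0.15 and -0.12), the 2 endothelial ones (0.29 and 0.31), mmu-miR-210-3p of the hypoxia response (-0.09 ± 0.27 and 0.03 ± 0.28) and the 6 of the miR-17 family (0.14 and -0.03) had 0 members with an unadjusted p under 0.05. The 4 pancreas miRNAs (medians 1.15 and 1.16) had 0 as well, and the 5 epithelial ones (-0.06 and 0.77) had 0 against HGC and 1 against VGC. With a brown fat profile the pancreas medians were -1.24, with 1 member lower at such a p, and -0.51. The muscle medians there were -0.28 and 0.06, and the epithelial ones 0.30 and 0.94, with 1 and 2 members at such a p.

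Neuronal and liver markers stood high in 1 FL library outside the listed pools, FL mouse 4. All 5 neuronal miRNAs had an unadjusted p under 0.05 in both comparisons, with medians of 4.76 and 5.05, and both liver miRNAs did, with medians of 3.3 and 5.05. mmu-miR-124-3p stood at 41408 CPM in FL mouse 4 and at 18.5 to 204 CPM in the other 5 FL mice. Among libraries with a brown fat profile, which leave out FL mouse 4, the neuronal medians were -0.03 and -0.09 with 0 of 5 members at an unadjusted p under 0.05. Libraries closest to brain were left out of this set by their miRNA levels, so low neuronal values in it are partly built in. The 3 kidney and gut miRNAs had medians of 1.81 and 1.86 outside the listed pools, with 3 and 2 members at an unadjusted p under 0.05, and medians of -1.27 and -0.04 with a brown fat profile. The liver medians there were -2.72 and 0.7, beside the liver sum of 13573 CPM in HGC mouse 13.

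The smallest p-values between FL and VGC outside the listed pools belonged to mmu-miR-92a-3p and mmu-miR-150-5p. mmu-miR-92a-3p, of the proliferation-linked miR-17-92 cluster, ranged over 534 to 1085 CPM (median 593) in FL and 486 to 1099 CPM (median 969.5) in HGC of these libraries. The 5 VGC mice held 2707, 1661, 1300.2, 2283 and 1335 CPM. Every FL mouse and every HGC mouse lay below every VGC mouse. The log2 difference was -1.42 ± 0.29 between FL and VGC (95% interval -2.03 to -0.81, p = 9.09e-05, adjusted p = 0.0756 by edgeR), -1.04 ± 0.29 between HGC and VGC (adjusted p = 0.193) and -0.38 ± 0.28 between FL and HGC. Among libraries with a brown fat profile FL against VGC gave -1.38 ± 0.31 (adjusted p = 0.143), and over the 30 libraries -1.11 ± 0.31 (0.64). Over the 30, leaving out FL mouse 3 made it the single miRNA called (adjusted p = 0.00793).

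Other miRNAs with the seed of mmu-miR-92a-3p gave values of either sign. Between FL and VGC outside the listed pools the log2 difference was -0.15 ± 0.30 for mmu-miR-25-3p, 0.66 ± 0.33 for mmu-miR-32-5p, 0.88 ± 0.89 for mmu-miR-363-3p and 2.53 ± 0.90 for mmu-miR-92b-3p. Their median levels were 678, 65.4, 2.86 and 16.8 CPM, beside 1026 CPM for mmu-miR-92a-3p. mmu-miR-92b-3p stood at 317 CPM in FL mouse 4 and 491 CPM in FL mouse 5 and at 5.66 to 20.2 CPM in the other 4 FL mice.

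mmu-miR-150-5p, an abundant miRNA of mature lymphocytes, ranged over 2766 to 7508 CPM (median 4377) in FL and 2952 to 7969 CPM (median 4598) in HGC. The VGC mice held 15021, 20881, 7929, 26192 and 8536 CPM. FL did not overlap VGC. The log2 difference between FL and VGC was -1.70 ± 0.39 (adjusted p = 0.121 by edgeR), and -1.63 ± 0.39 with a brown fat profile (0.17). Over the 30 libraries, which include spleen and thymus profiles, it was -0.41 ± 0.53. HGC against VGC gave -1.60 ± 0.39 (adjusted p = 0.144). The 5 white blood cell miRNAs summed to 3762 to 9174 CPM in FL, 4013 to 9298 in HGC and 8850 to 27881 in VGC, and mmu-miR-150-5p, itself a member, made up most of these sums. The other 4 had no unadjusted p under 0.05, and the median of the list was -0.81 beside 0.22 over all miRNAs tested.

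A group of 7 of 832 miRNAs (0.841%) did not overlap between FL and VGC outside the listed pools, 6 with every FL mouse below every VGC mouse and 1 with every FL mouse above. Beside mmu-miR-92a-3p and mmu-miR-150-5p these were mmu-miR-99b-5p, mmu-miR-450a-1-3p, mmu-miR-1981-5p, mmu-miR-5100 and mmu-miR-6538. FL and HGC had 0 such miRNAs there. Among libraries with a brown fat profile 8 of 791 (1.01%) did not overlap between FL and VGC, including these 7. The VGC libraries of that set are the same, and its FL libraries are the same without FL mouse 4. The 7 therefore had to recur, and their recurrence is no separate test. Between FL and HGC 1 (0.126%), mmu-miR-126a-5p, did not overlap with a brown fat profile. The share of miRNAs that would not overlap by chance was not tested.

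**Figure D4:**
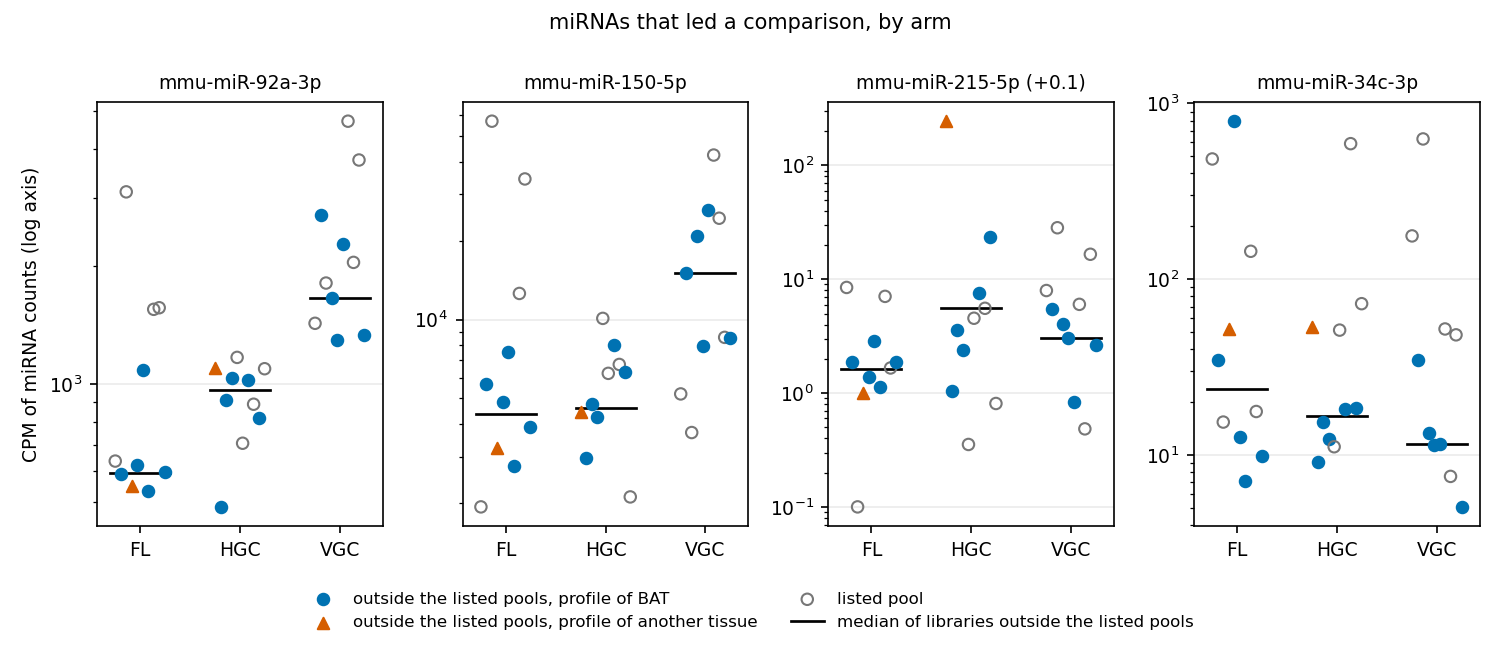
Level of mmu-miR-92a-3p, mmu-miR-150-5p, mmu-miR-215-5p and mmu-miR-34c-3p (CPM, log axis) by arm, 1 point per library, marked by listed pool and tissue profile. FL lies below VGC for mmu-miR-92a-3p and mmu-miR-150-5p outside the listed pools, HGC mouse 1 is the highest of the HGC mice outside those pools for mmu-miR-215-5p, and FL mouse 5 the highest FL mouse for mmu-miR-34c-3p.

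Red blood cell miRNAs had 1 member each with an unadjusted p under 0.05. Of the 4, mmu-miR-451a gave -0.76 ± 0.33 between FL and HGC (adjusted p = 0.237 by edgeR) and mmu-miR-486a-5p gave -1.38 ± 0.49 between FL and VGC (adjusted p = 0.176). The list summed to 9572 to 32509 CPM in FL, 15146 to 64325 in HGC and 13721 to 36144 in VGC. The arms overlapped.

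Between FL and HGC the smallest p-value outside the listed pools belonged to mmu-miR-215-5p, a miRNA known from kidney and gut epithelium. It ranged over 0.893 to 2.77 CPM (median 1.52) in FL, 0.94 to 245 CPM (median 5.51) in HGC and 0.742 to 5.36 CPM (median 2.94) in VGC, and it stood at 245 CPM in HGC mouse 1, 23.6 in HGC mouse 14 and 7.51 in HGC mouse 12. HGC mouse 1, with by far the highest level, had the profile of subcutaneous fat. The log2 difference was -4.51 ± 1.02 (adjusted p = 0.135 by edgeR), and -1.88 ± 0.70 among libraries with a brown fat profile, which leave out HGC mouse 1 and FL mouse 4 and add HGC mouse 5 and HGC mouse 13 (adjusted p = 1). mmu-miR-192-5p, with the same seed, differed by 2.53 ± 0.80 outside the listed pools and -1.27 ± 0.58 with a brown fat profile. FL mouse 4 held 16146 CPM of it and the other 5 FL mice 325 to 627 CPM.

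The next smallest p-values between FL and HGC outside the listed pools belonged to mmu-miR-466i-5p (-1.98 ± 0.46), mmu-miR-5100 (-2.14 ± 0.54), mmu-miR-135a-5p (4.81 ± 1.22) and mmu-miR-384-3p (4.60 ± 1.20), each with an adjusted p of 0.135 by edgeR. With a brown fat profile mmu-miR-135a-5p gave 0.26 ± 0.41, mmu-miR-466i-5p -1.12 ± 0.47 and mmu-miR-5100 -1.33 ± 0.64. Between FL and VGC mmu-miR-9-5p (6.07 ± 1.58), a neuronal miRNA, and mmu-miR-31-3p (2.31 ± 0.62) followed, and with a brown fat profile these gave 0.74 ± 0.49 and 1.34 ± 0.66. The leading values over the 30 libraries were mmu-miR-146a-3p (4.62 ± 1.22) and mmu-miR-142a-3p (2.99 ± 0.90) against HGC, both immune-cell miRNAs. mmu-miR-142a-3p stood at 11098 and 17703 CPM in the 2 FL libraries with a spleen profile, and outside the listed pools its difference was 0.04 ± 0.45.

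Between the habitat and vivarium controls mmu-miR-92a-3p again had the smallest p-value over the 30 libraries. HGC against VGC gave 0 calls over the 30 libraries by edgeR (smallest adjusted p = 0.142, 168 miRNAs or 16.6% at an unadjusted p under 0.05), 37 calls by DESeq2 (3.65%) and 0 by the Wilcoxon test. Outside the listed pools edgeR called 0 of 832 (smallest adjusted p = 0.144, 61 at an unadjusted p under 0.05) and DESeq2 called 26 (3.12%). mmu-miR-92a-3p ranged over 486 to 1172 CPM (median 969.5) in HGC and 1300.2 to 4699.9 CPM (median 1932) in VGC over the 30 libraries without overlap, as the 1 miRNA of 1015 (0.0985%) to do so. Outside the listed pools 13 of 832 (1.56%) did not overlap, 7 with HGC above VGC and 6 with HGC below, among them the let-7 family members mmu-let-7i-5p (1.37 ± 0.31), mmu-let-7g-5p (1.24 ± 0.30), mmu-let-7a-5p and mmu-let-7e-5p. mmu-let-7g-5p ranged over 14282 to 22034 CPM (median 18631) in HGC, 4049 to 11525 CPM (median 9046) in VGC and 7511 to 31611 CPM (median 16357) in FL. Its difference between FL and VGC was 1.08 ± 0.30 (adjusted p = 0.147 by edgeR). With a brown fat profile 4 of 791 (0.506%) did not overlap between HGC and VGC, each with HGC below. These were mmu-miR-92a-3p, mmu-miR-652-3p, mmu-miR-6538 and mmu-miR-1943-3p, with no let-7 member among them.

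Brown fat of the LAR set, whose FL mice returned alive, was set beside that of the TERM set. A fit over the 60 brown fat libraries of both protocols tested the flight difference within each and the difference between them. The protocols also differed in the length of the flight and in the preservation of the tissue, and these cannot be told apart from the return itself. Of the 30 LAR libraries 7 had the profile of another tissue (3 FL, 1 HGC and 3 VGC), and each of the 7 lay in the listed pools. mmu-miR-122-5p reached 287175 CPM in a LAR FL library (median 465) and mmu-miR-124-3p 44637 CPM in a LAR HGC library (median 45.7). Outside the listed pools this fit called 29 miRNAs (3.04% of 955) between FL and HGC in TERM mice and 30 (3.14%) between FL and VGC by edgeR. The fit of the TERM libraries alone called 0 of 832 in both, and the reason for the difference was not tested. Without FL mouse 4 the fit of both protocols called 1 (0.109%), mmu-miR-215-5p, and 0, and with a brown fat profile 0 in both (41 and 66 at an unadjusted p under 0.05). mmu-miR-92a-3p (-1.59 ± 0.34) and mmu-miR-150-5p (-1.88 ± 0.39) were among the 30 called against VGC, both with an adjusted p of 0.00922. Without FL mouse 4 they gave -1.40 ± 0.34 (adjusted p = 0.102) and -1.64 ± 0.40 (0.102).

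Between FL and HGC in LAR mice the fit called 42 miRNAs (3.95% of 1064) over all libraries, where it called 0 in TERM mice. Outside the listed pools it called 4 (0.419%) in LAR mice, and with a brown fat profile 21 (2.25%), among them mmu-miR-34b-5p and mmu-miR-34c-5p. Between FL and VGC it called 0 in LAR mice in each of these sets. In LAR mice outside the listed pools the FL against VGC difference was -0.31 ± 0.32 for mmu-miR-92a-3p, -1.22 ± 0.37 for mmu-miR-150-5p and -0.77 ± 0.41 for mmu-miR-21a-5p. TERM minus LAR was -1.28 ± 0.46 for mmu-miR-92a-3p (p = 0.0084, adjusted p = 0.223 by edgeR), -0.67 ± 0.53 for mmu-miR-150-5p and 1.52 ± 0.60 for mmu-miR-21a-5p (adjusted p = 0.304), so none of the 3 was shown to differ between protocols. For FL against VGC 8 miRNAs (0.838%) were called as different between protocols outside the listed pools, among them mmu-miR-9-5p and mmu-miR-122-3p, and 0 without FL mouse 4. For mmu-miR-193b-3p the value was -0.55 ± 0.64 and for mmu-miR-365-3p -0.59 ± 0.52. For FL against HGC the fit of 60 libraries called 15 miRNAs (1.41%) as different between protocols, 1 outside the listed pools (0.105%, mmu-miR-215-5p, -4.63 ± 1.00, adjusted p = 0.0383) and 0 with a brown fat profile (54, or 5.78%, at an unadjusted p under 0.05). Leaving out 1 TERM library moved the 15 to between 0 (without HGC mouse 16, of kidney profile) and 88 (without HGC mouse 11, of brain profile).

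Age alone gave no call, and its interaction with flight rested on few libraries. Mice of 8 months against 3 months gave 0 calls over the 30 libraries by edgeR (99, or 9.75%, at an unadjusted p under 0.05). The difference between FL and HGC differed between ages for 83 of 1015 miRNAs (8.18%), 81 of them with a lower FL minus HGC value at 8 months, and for 34 with edgeR's own expression filter. Without the listed pools it did so for 0 (62, or 7.45%, at an unadjusted p under 0.05), and with a brown fat profile for 7 (0.885%). Of the lists, 4 of 5 neuronal, 2 of 2 liver, 2 of 3 kidney and gut, 3 of 4 pancreas, 2 of 3 p53 and 1 of 7 muscle miRNAs were among the 83, and none of the 27 promoters and inhibitors of brown fat. In FL the brain profiles were those of mice 1 and 4, both aged 3 months, and in HGC that of mouse 11, aged 8 months, and the part of these libraries in the 83 was measured only by leaving out 1 at a time, which gave 17 (without HGC mouse 11) to 95 (without FL mouse 3), with 32 without FL mouse 4 and 41 without FL mouse 1.

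The 7 miRNAs called among libraries with a brown fat profile were led by the miR-34 family, transcriptional targets of the tumour suppressor p53. In the comparison of arms the p53 list of mmu-miR-34a-5p, mmu-miR-34b-5p and mmu-miR-34c-5p had medians of 1.96 against HGC and 2.74 against VGC outside the listed pools, with 2 and 3 members at an unadjusted p under 0.05. With a brown fat profile its medians were 1.13 and 2.75. The list summed to 3577 CPM in FL mouse 5, to 343 to 687 CPM in the other 4 FL libraries with a brown fat profile and to 242 to 456 CPM in the 5 VGC libraries, so 1 FL library lay far above the rest. mmu-miR-34c-3p gave an interaction of -9.51 ± 1.55 (adjusted p = 0.0025 by edgeR), and mmu-miR-34b-3p gave -6.96 ± 1.18. The others were mmu-miR-34c-5p, mmu-miR-34b-5p, mmu-miR-449a-5p, mmu-miR-92b-3p and mmu-miR-1298-5p. mmu-miR-34c-3p stood at 793 CPM in FL mouse 5 (3 months) and 591 CPM in HGC mouse 13 (8 months). These 2 libraries had the lowest correlations with the brown fat profile among the 17 (0.562 and 0.459). Their epithelial miRNAs summed to 5131 and 4875 CPM, beside 831 to 3041 in the other 15, and FL mouse 5 had an endothelial sum of 50624 CPM, beside 8641 to 31084 in the other 16. The part of such markers in the result was not tested. For mmu-miR-34c-3p the other 15 libraries of brown fat profile ranged from 5.08 to 34.8 CPM. FL against HGC was 5.00 ± 1.04 at 3 months (adjusted p = 0.018), from 2 FL and 4 HGC libraries, and -4.51 ± 1.11 at 8 months (adjusted p = 0.17), from 3 and 3. Without FL mouse 5 the count of 7 fell to 0, and without HGC mouse 13 it was 2, so the count depended on single libraries. Counts of 2 were also reached without FL mouse 11, FL mouse 12, FL mouse 16, HGC mouse 2 or HGC mouse 5, and 17 without HGC mouse 14.

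A rule of fold and effect size, modelled on that of the study, took a difference of medians over 1 and a Cohen's d over 0.5 in size, and carries no p-value. Here it was applied to log2 of CPM over all classes plus 1, a scaling and pseudocount chosen for this comparison. It took 8 miRNAs for FL against HGC (8 higher, 0 lower) and 13 for FL against VGC (13 higher, 0 lower) over the 30 libraries. Scaled to miRNA counts alone it took 6 (2 higher, 4 lower) and 14 (0 higher, 14 lower). Without the listed pools it took 93 (93 higher) and 63 (62 higher, 1 lower), and with a brown fat profile 37 and 60, each higher. Over the 30 libraries the direction of the count therefore depended on the scaling. The scaling to miRNA counts was not run in the other sets of libraries.

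The mean share of counts that fell to miRNA was highest in FL libraries, a difference that did not pass after adjustment. Over the 30 libraries it was 7.13 ± 2.12% (SD) in FL, 5.66 ± 2.3% in HGC (p = 0.152) and 5.14 ± 1.52% in VGC (p = 0.0275, adjusted p = 0.385), by two-sided permutation tests with 100000 resamples, adjusted over 14 comparisons. Outside the listed pools it was 7.88 ± 2.35% in FL, 4.43 ± 2.06% in HGC (exact permutation p = 0.0325) and 4.73 ± 1.25% in VGC (p = 0.0303 by the same test, adjusted p = 0.227 for both). tRNA fragments formed the largest class, with 48.7 ± 23.7% in FL, 54.4 ± 18.7% in HGC and 55.1 ± 10.2% in VGC over the 30. For 0 of the 14 comparisons was the adjusted p under 0.05 in any of the 3 sets of libraries.

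Fragments of tRNA, rRNA and snRNA gave 0 calls by edgeR between flight and control. It called 0 tRNAs of 408 over the 30 libraries in both comparisons, with 13 (3.19%) at an unadjusted p under 0.05 against HGC and 52 (12.7%) against VGC, and 0 of 403 outside the listed pools, with 57 (14.1%) and 35 (8.68%). DESeq2 called 10 (2.48%) against VGC there. In tRNA-Asn 10 of 12 genes had an unadjusted p under 0.05 against VGC outside the listed pools, with a median of 0.85 beside 0.08 over all tRNAs, and 9 of 12 with a brown fat profile (median 0.59), beside 3.47% of all tRNAs there. These 12 genes hold 4 distinct rows of counts, since near-identical copies share reads. The row of tRNA-Asn-GTT-3-1 is shared by 9 genes, so 9 of the 10 outside the listed pools repeat 1 measurement. tRNA-Asn-GTT-3-1 ranged from 16.8 to 39.8 CPM of the tRNA class in FL (median 36), 11.9 to 23.4 in HGC (median 20.4) and 11.3 to 24.4 in VGC (median 15), a log2 difference of 0.85 ± 0.26 against VGC (adjusted p = 0.124). Fragments of tRNA-Glu and tRNA-Gly made up most of the class, 46.6 ± 8.33% and 23.7 ± 4.38% in FL outside the listed pools, beside 53.7 ± 5.22% and 17.7 ± 4.11% in HGC and 45.7 ± 7.43% and 24.5 ± 5.15% in VGC. Against HGC 9 of the 12 had such a p outside the listed pools (median 0.54) and 0 of 12 with a brown fat profile (median 0.13). In tRNA-Cys 0 of 54 genes had an unadjusted p under 0.05 against HGC outside the listed pools (median -0.09), and 37 of 54 with a brown fat profile (median -0.44, beside -0.19 over all tRNAs, of which 11.9% had such a p). The 54 hold 22 distinct rows of counts. In tRNA-Ala 16 of 34 genes had an unadjusted p under 0.05 against HGC outside the listed pools (median -0.62), and 1 of 34 with a brown fat profile (median -0.53).

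Among rRNA fragments the smallest p-value outside the listed pools between FL and HGC was that of CT010467.1, which took 113579 to 206501 CPM of the rRNA class in FL, 64465 to 135706 in HGC and 98708 to 182419 in VGC. Its log2 difference was 0.83 ± 0.26 (adjusted p = 0.568 by edgeR), and the arms overlapped. Outside the listed pools 8 rRNAs (3.15%) had an unadjusted p under 0.05 against HGC and 1 (0.394%) against VGC. n-R5-8s1, a 5.8S rRNA, differed by 0.74 ± 0.31. The snRNA Gm23645 ranged from 31.7 to 122 CPM of the snRNA class in FL and 20.5 to 40.5 in HGC, a difference of 1.53 ± 0.40 (adjusted p = 0.384 by edgeR), and it was the 1 snRNA that DESeq2 called (0.134%). Gm23238 differed by -0.58 ± 0.16 against HGC and -0.59 ± 0.17 against VGC. Over all 30, edgeR called 0 of 257 rRNAs, with 6 (2.33%) and 13 (5.06%) at an unadjusted p under 0.05 against HGC and VGC, and 0 of 886 snRNAs, with 27 (3.05%) and 52 (5.87%). DESeq2 called 0 of both classes there.

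snoRNAs were called between FL and HGC outside the listed pools, most of them on chromosome 7. edgeR called 202 of 862 (23.4%), 183 higher and 19 lower in FL, and 0 between FL and VGC (221, or 25.6%, at an unadjusted p under 0.05). It called 0 of 950 over the 30 libraries in both comparisons (81, or 8.53%, and 22, or 2.32%, at an unadjusted p under 0.05). The 183 higher genes hold 63 distinct rows of counts, and 178 of the 179 with a known chromosome lie on chromosome 7, as do 236 of the 743 tested genes with one. These include 16 genes named Snord116l, of the imprinted snoRNA clusters that neurons express. Gm22776, first by p-value, ranged from 1.73 to 133 CPM of the snoRNA class in FL (median 2.6) and 1.07 to 2.33 in HGC. FL mouse 4 set the upper end.

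The 251 snoRNAs of chromosome 7, called or not, summed to 353855 CPM of the snoRNA class in FL mouse 4 and to 31164 to 58689 in the other 16 libraries outside the listed pools. The other brain profiles had 316277 (FL mouse 1), 291252 (HGC mouse 11) and 166977 (VGC mouse 1), and VGC mouse 3, of thymus profile, had 129761. Without FL mouse 4 edgeR called 0 between FL and HGC (48, or 5.63%, at an unadjusted p under 0.05). The 183 then had a median of -0.12 (31 above 0) in place of 3.77. Of the 19 lower genes 19 were still below 0, with a median of -4.34 in place of -3.96. With a brown fat profile edgeR called 0 (26, or 3.04%, at an unadjusted p under 0.05). The count was also 0 without HGC mouse 1, 2, 3, 4, 12 or 14, VGC mouse 2 or VGC mouse 11, and it was 190 to 215 without any other single library. Between FL and VGC the 0 became 181 to 203 without FL mouse 2, 5, 11, 12 or 16 and remained 0 without any other single library. Without FL mouse 4, 14 of 853 had an unadjusted p under 0.05 between FL and VGC. DESeq2 called 0 outside the listed pools in both comparisons (60 and 28 at an unadjusted p under 0.05). The 19 lower genes included Gm22347, which was at 0 in each of the 6 FL libraries and at most at 2.85 CPM of the snoRNA class in HGC.

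**Figure D5:**
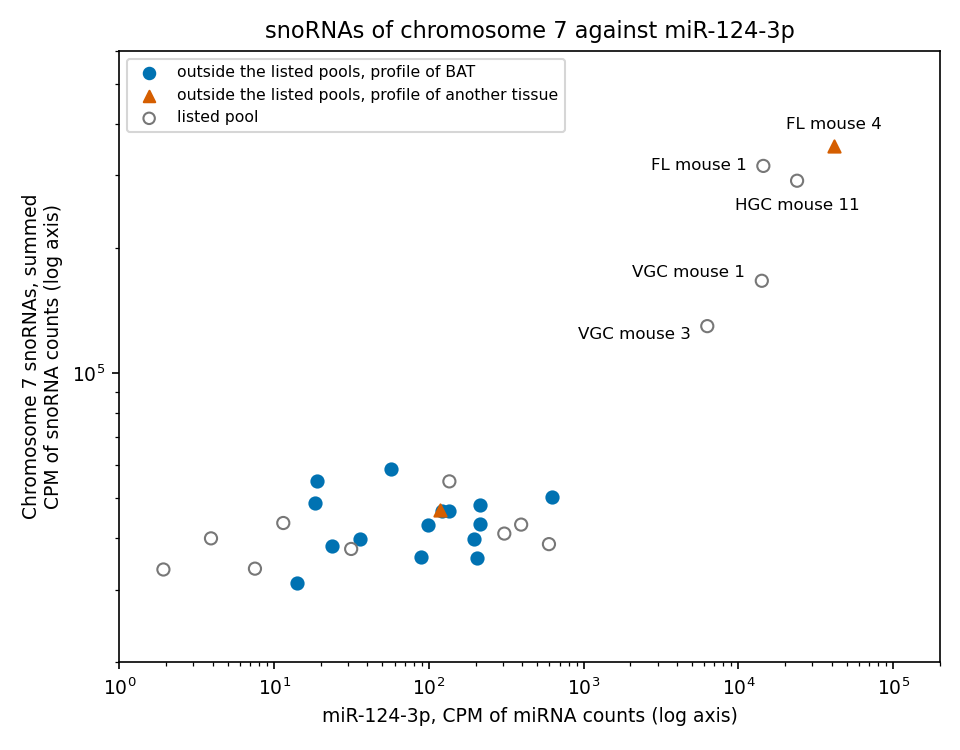
Summed level of the snoRNAs of chromosome 7 (CPM of the snoRNA class, log axis) against mmu-miR-124-3p (CPM, log axis), 1 point per library, marked by listed pool and tissue profile. The 4 libraries of brain profile and VGC mouse 3 have the highest sums of the 30, from 129761 to 353855.

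piRNA annotations were called between FL and HGC outside the listed pools as well. edgeR called 27 of 760 (3.55%), 25 lower and 2 higher in FL, and 0 between FL and VGC (81, or 10.7%, at an unadjusted p under 0.05). The 25 had a median log2 difference of -1.93, and the median of their levels was 40 CPM of the piRNA class in FL, 164 in HGC and 30.5 in VGC. Between HGC and VGC edgeR called 16 (2.11%) there, 10 higher and 6 lower in HGC, and 14 (1.84%) without FL mouse 4. This count was 0 without HGC mouse 1, 2 or 3 or VGC mouse 4, 5 or 11, 7 without VGC mouse 2, 88 without HGC mouse 14, 96 without HGC mouse 4 and 140 without VGC mouse 16. On the same libraries DESeq2 called 71 (9.34%) against HGC and 4 (0.526%) against VGC. oocyte_piRNA500 ranged from 17.7 to 32 in FL, 27.4 to 641 in HGC and 4.28 to 96 in VGC, a difference of -2.56 ± 0.57 between FL and HGC (adjusted p = 0.0401). FL overlapped HGC at its lower end and VGC throughout. Without FL mouse 4 the count was 0 (142, or 18.7%, at an unadjusted p under 0.05), although the 25 were all below 0 with a median of -1.90 and oocyte_piRNA500 gave -2.57 (adjusted p = 0.0971), and with a brown fat profile it was 0, with 25 of 25 below 0 and a median of -1.18. It was also 0 without FL mouse 2, 5, 11, 12 or 16, HGC mouse 1 or 2, or VGC mouse 5, and 24 to 85 without any other single library. In all, 0 of 1183 were called over the 30 libraries in both comparisons (104, or 8.79%, and 128, or 10.8%, at an unadjusted p under 0.05). oocyte_piRNA413 led FL against VGC outside the listed pools, with 1429 to 7187 in FL and 941 to 2074 in VGC (1.58 ± 0.39, adjusted p = 0.186 by edgeR). It was called without FL mouse 2.

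With the filter on low counts edgeR called 0 lncRNAs. Over the 30 libraries 0 of 5016 passed in both comparisons, with 219 (4.37%) and 338 (6.74%) at an unadjusted p under 0.05, and outside the listed pools 0 of 3840, with 328 (8.54%) and 449 (11.7%), while DESeq2 called 4 (0.104%) and 37 (0.964%) there. Mirg, the host transcript of an imprinted miRNA cluster, ranged from 18.5 to 237 CPM of the lncRNA class in FL and 10.7 to 40.2 in HGC outside the listed pools (2.14 ± 0.47, adjusted p = 0.123), and gave 0.73 with a brown fat profile. Gm9899 ranged from 1.89 to 10.8 in FL, 3.99 to 18.2 in HGC and 10.1 to 48.8 in VGC (-1.84 ± 0.37 between FL and VGC, adjusted p = 0.114 by edgeR). Gm49083 ranged from 0.841 to 7.36 in FL and 12 to 28.1 in VGC without overlap (-1.87 ± 0.40, adjusted p = 0.114, and 0.0778 with a brown fat profile).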

How the data were processed

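Small RNA was sequenced from brown fat of 30 TERM mice. The authors processed the reads with miRMaster and miRBase, as the study's methods state, on the mouse genome GRCm39 per the submitters' processing notes, and deposited raw counts per feature in 7 tables, 1 per RNA class. The deposited counts of tRNA, rRNA, snRNA, snoRNA, piRNA and lncRNA are whole numbers. The deposited miRNA values are estimated counts that need not be whole, and were rounded. Total counts were 35062133 to 428254667 per library and miRNA counts 1864145 to 15596772. In each table, 626 columns belonged to other tissues, and these were used only in the miRNA table, for the check of tissue profiles. Many rows are identical because near-identical genes share reads, for example 224 distinct rows of counts among 408 tRNAs.

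Within each class, features with at least 5 counts in at least 10% of the libraries of any arm were tested with the quasi-likelihood test of edgeR 4.0.16 (R 4.3.3, limma 3.58.1) after TMM scaling, in 1 fit over the 3 arms, with Benjamini-Hochberg adjustment over all tested features at 0.05. Age and protocol (TERM or LAR, 60 libraries) entered as interactions in fits of their own. The ± after a log2 difference is the SE of the fit. CPM are counts per 1000000 counts of the class. DESeq2 1.42.0, Wilcoxon tests, other scalings and filters, age, plate, and leaving out libraries were alternatives. Class shares were compared by permutation with scipy 1.17.1, and profiles and levels with pandas 2.3.3. The procedures were tested on simulated data. Named miRNAs were the 80 of the lists, those called and up to 5 with the smallest p-values per comparison, and in other classes the 3 with the smallest p-values. The members, lists and pools were chosen with earlier results of these data known.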

Additional observations from a re-analysis of the deposited data

Results flagged for a closer look

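Samples far from the other 9 of their arm were looked for in 45 groups of 10 libraries, and 5 were found where chance gives about 1 in 20. VGC mouse 13, of spleen profile, had a total of 428254667 counts and 15596772 miRNA counts. HGC mouse 16, of kidney profile, had 23.3% of its counts in snRNA and a mmu-miR-193b-3p level of 7.00 on the log2 scale of CPM plus 1. HGC mouse 13, which held liver miRNAs, had 3.48% of its counts in piRNA.

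The FL minus HGC difference differed between ages over the 30 libraries for 83 miRNAs by edgeR. The smallest p-values belonged to mmu-miR-129-1-3p (-7.89), mmu-miR-1298-5p (-10.95), mmu-miR-879-3p (-7.70), mmu-miR-9-3p (-10.26) and mmu-miR-3099-3p (-11.50), with adjusted p-values of 0.00927 for the first 4 and 0.00944 for the last. Outside the listed pools 0 miRNAs were called and with a brown fat profile 7.

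The same difference differed between TERM and LAR mice for 15 miRNAs by edgeR over 60 libraries. The smallest p-values belonged to mmu-miR-194-5p (-4.92) and mmu-miR-192-5p (-5.79), both with an adjusted p of 0.0375, and to mmu-miR-5126 (4.69), mmu-miR-3070-2-3p (5.52) and mmu-miR-192-3p (-5.41), each with 0.0387. HGC mouse 16 held 34918 CPM of mmu-miR-192-5p. Among LAR mice 1 FL library reached 97165 CPM of it (median 719.8), the highest FL levels of mmu-miR-194-5p and mmu-miR-192-3p were 10468 and 1185 CPM, and mmu-miR-5126 reached 1137 CPM in HGC (median 4.01). With a brown fat profile 0 miRNAs were called.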

How the results depend on the processing

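DESeq2 without the listed pools called 5 miRNAs in each flight comparison and 26 between HGC and VGC, where DESeq2 over the 30 called 37. It called 10 tRNAs against VGC, 1 snRNA against HGC, 71 piRNAs against HGC and 4 against VGC, and 4 lncRNAs against HGC and 37 against VGC. edgeR without a filter on low counts called 3 piRNAs against HGC and 2 against VGC and 6 lncRNAs against VGC. Without the listed pools edgeR called 202 snoRNAs and 27 piRNAs against HGC. The age and flight interaction gave 34 calls with filterByExpr, 0 without the listed pools and 7 with a brown fat profile, and the protocol and flight interaction 8, 1 and 0. The fold and effect size rule took 93 (listed pools left out), 1 (pseudocount 10) and 37 (brown fat profile) against HGC and 63, 6 and 60 against VGC. The cause was not tested.

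Leaving out 1 library at a time gave 0 to 0, 0 to 1 and 0 to 0 miRNAs for FL against HGC, FL against VGC and HGC against VGC. It gave 17 to 95 for the age interaction (0 to 17 with a brown fat profile) and 0 to 88 for the protocol interaction (0 to 3 without the listed pools). Without the listed pools it gave 0 to 215 and 0 to 203 snoRNAs and 0 to 85 and 0 to 1 piRNAs against HGC and VGC.

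Mouse numbers do not pair animals across arms: of 30 same-number pairs 10 correlated over 0.1 (median -0.02). With the number as a replicate block 0 features of any class were called. Age, plate, other scalings and the Wilcoxon test also gave 0 miRNAs in the 3 comparisons of arms. Leaving out FL mouse 4 together with the listed pools, DESeq2 without these pools, and, beyond the miRNA comparisons of arms, the brown fat profile and leaving out libraries were chosen after seeing the data.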
